A study of Mus musculus with 2 samples.

Results

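The genes described here are 10 components of adherens junctions and desmosomes in mouse intestinal organoids (mIOs), chosen by symbol from the 19294 genes of a raw count table. They are the cadherins Cdh1 and Cdh17, the catenin Ctnna1, the adhesion molecule Epcam, the desmosomal cadherins Dsg2 and Dsc2, the plakin Dsp, and the armadillo proteins Jup, Pkp2 and Pkp3. Every one of the 10 was present in the table, and each had at least 1000 counts in a library. mIOs are epithelial cultures grown from crypts in Matrigel, here in medium with EGF, Noggin and R-spondin. Both libraries carried the Lgr5-EGFP-IRES-creERT2 genotype, a reporter allele that marks crypt base stem cells, and both were harvested on day 4. One library came from Control mIOs and the other from mIOs treated for 4 days with dextran sulfate sodium (DSS), a sulfated polysaccharide used to induce intestinal inflammation. Neither the DSS concentration used for sequencing nor the number of mice or cultures behind each library is given in the sources used here.

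Total counts were 65493032 for Control and 59746968 for DSS. With 1 library per condition there was no replicate check, so no test between the conditions was possible and every interval given here covers counting error only. Levels are CPM (counts per 1000000 counts of a library) after scaling by the trimmed mean of M-values (TMM), and a log2 ratio is DSS over Control, with a 95% exact interval. Other scalings moved the log2 ratio of every gene together, and the median of the 17235 genes with at least 10 counts in a library stood at -0.06 by TMM, 0.03 by upper quartile factors and -0.31 by total counts. A difference given here is therefore one between 2 libraries, and the effect of DSS cannot be told apart from any other difference between them.

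The labels give the cell type of both samples as stem cells of the intestine. All 5 stem cell markers listed for the check were detected in the Control library, where Lgr5 had 18849 counts and 263 CPM. In the DSS library Lgr5 had 1048 counts and 19.2 CPM, and Olfm4 had 13 counts against 13109 in Control. All 5 stem cell markers and all 7 cycling cell markers had a log2 ratio of -1 or less, with medians of -4.26 and -4.25. Markers of differentiated cells were detected in both libraries as well, so the label does not cover all cells of either library.

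Adherens junctions hold neighbouring epithelial cells together through cadherins, whose cytoplasmic tails bind catenins that connect to the actin belt. Desmosomes use a separate set of cadherins, the desmogleins and desmocollins, which bind plakoglobin and plakophilins and are tied to keratin filaments by desmoplakin. In intestinal epithelium these junctions lie below the tight junction and keep the cell sheet intact while cells move from the crypt to the villus. Cdh17 and Epcam also join cells but do not use the catenin link in the way that E-cadherin does.

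By TMM most of these genes were modestly higher in the DSS library, with 8 of the 10 above a log2 ratio of 0 and a median of 0.26. By total counts 5 were above 0 and the median was 0.0086, and by upper quartile factors the median was 0.36. Above 0 by TMM stood 48.0% of all genes with at least 10 counts and 45.3% of the 8960 genes with at least 1000 counts. The matching shares by total counts were not computed, but the median of the genes with at least 10 counts was then -0.31. Cdh17, Dsp, Dsg2 and Dsc2 had the highest ratios, between 0.55 and 0.93. The other genes lay between -0.13 and 0.30. None of the 10 reached a log2 ratio of at least 1 by TMM, a line passed by 19.3% of the tested genes and by 12.8% of those with at least 1000 counts. None was at -1 or less either, where 20.2% and 17.7% of the genes stood. Together the 10 genes took 307946 counts in Control, 0.470% of that library, and 313204 in DSS, or 0.524%.

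**Figure D1:**
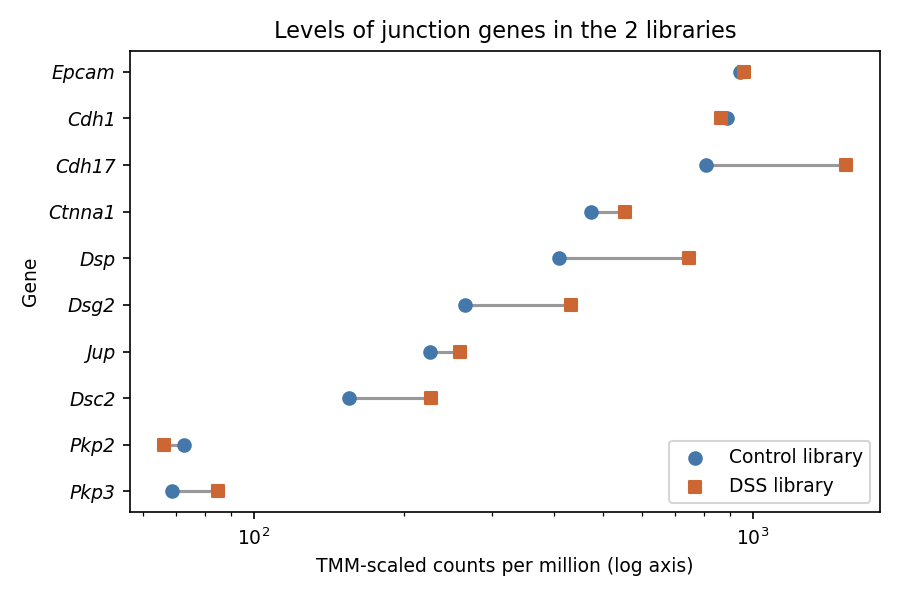
Levels of the 10 genes in the Control library (circles) and the DSS library (squares), in TMM-scaled CPM on a log axis, joined by a line for each gene and not corrected for gene length. Cdh17 moved furthest, from 807 to 1535, while the symbols of Epcam and Cdh1 nearly coincide.

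Cdh1 (NCBI Gene 12550) encodes E-cadherin, the classical cadherin of epithelial adherens junctions. It had 63434 counts in Control and 47309 in DSS, or 886 and 865 CPM. The log2 ratio was -0.035 (interval -0.05 to -0.02), and it was 0.056 by upper quartile factors, so its direction depended on the scaling. Cdh1 stood next to the median of all tested genes, with 50.8% of them below it.

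Cdh17 (12557) encodes LI-cadherin (named liver-intestine cadherin), which has additional extracellular repeats and a short tail that does not bind catenins. It had 57733 counts in Control and 83924 in DSS, or 807 and 1535 CPM. The log2 ratio was 0.93 (interval 0.91 to 0.94), a fold of 1.90, the highest of the 10. It was 0.67 by total counts and 1.02 by upper quartile factors, the only scaling of the 4 that placed any of the 10 genes past the line of 1.

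The balance between the cadherins does not depend on the scaling, because a ratio of 2 genes within a library is free of it. Cdh17 had 0.910 counts per count of Cdh1 in Control and 1.77 in DSS, a log2 change of 0.96 (interval 0.94 to 0.99). Per kilobase of transcript the Cdh17 to Cdh1 ratio was 1.16 in Control and 2.27 in DSS. Of the summed level per kilobase of this pair, Cdh17 made up 53.8% in Control and 69.4% in DSS.

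Ctnna1 (12385) encodes alpha-E-catenin, which couples the cadherin and beta-catenin complex to actin. It had 33868 counts in Control and 30249 in DSS, or 473 and 553 CPM. The log2 ratio was 0.23 (interval 0.20 to 0.25) by TMM but -0.031 by total counts. The other catenins of the same complex also had positive values by TMM, with Ctnnb1 (beta-catenin) at 0.32 and Ctnnd1 (p120-catenin) at 0.13. By total counts Ctnnb1 was at 0.061 and Ctnnd1 at -0.13. Over Cdh1, Ctnna1, Ctnnb1 and Ctnnd1, the summed counts gave a log2 ratio of 0.15 (interval 0.14 to 0.16) by TMM, while their share of all counts was 0.274% in Control and 0.254% in DSS.

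Epcam (17075) encodes the epithelial cell adhesion molecule, which is known to bind and stabilise claudin-7. It had 67379 counts in Control and 52502 in DSS, or 941 and 960.3 CPM. The log2 ratio was 0.029 (interval 0.01 to 0.05), and it was -0.23 by total counts.

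Dsg2 (13511) and Dsc2 (13506) encode desmoglein 2 and desmocollin 2, the desmosomal cadherins of simple epithelia. Dsg2 had 18980 counts in Control and 23619 in DSS, or 265 and 432 CPM, and a log2 ratio of 0.70 (interval 0.68 to 0.73). Dsc2 had 11084 and 12379 counts, or 155 and 226 CPM, and a log2 ratio of 0.55 (interval 0.51 to 0.59). Both were higher in the DSS library under all 4 scalings, with lowest values of 0.45 for Dsg2 and 0.29 for Dsc2 by total counts. Dsc2 had 0.584 counts per count of Dsg2 in Control and 0.524 in DSS, a log2 change of -0.16 (interval -0.20 to -0.11).

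Dsp (109620) encodes desmoplakin, which anchors keratin filaments to the desmosomal plaque. It had 29260 counts in Control and 40806 in DSS, or 409 and 746 CPM. The log2 ratio was 0.87 (interval 0.85 to 0.89), a fold of 1.83, and it was 0.61 by total counts. Dsp stood close to Cdh17 among all genes, with 78.1% and 79.2% of the tested genes below them.

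Jup (16480) encodes plakoglobin, an armadillo protein shared by desmosomes and adherens junctions. It had 16106 counts in Control and 14166 in DSS, or 225 and 259 CPM. The log2 ratio was 0.20 (interval 0.17 to 0.24) by TMM and -0.053 by total counts. Against its partner in the plaque, Dsp had 1.82 counts per count of Jup in Control and 2.88 in DSS, a log2 change of 0.67 (interval 0.63 to 0.70). Against its paralog beta-catenin, Jup had 0.324 counts per count of Ctnnb1 in Control and 0.300 in DSS, a log2 change of -0.11 (interval -0.15 to -0.08).

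Pkp2 (67451) and Pkp3 (56460) encode plakophilins, armadillo proteins that cluster desmosomal cadherins and desmoplakin. Pkp2 had 5190 counts in Control and 3618 in DSS, or 72.5 and 66.2 CPM, and a log2 ratio of -0.13 (interval -0.19 to -0.07). Pkp3 had 4912 and 4632 counts, or 68.6 and 84.7 CPM, and a log2 ratio of 0.30 (interval 0.25 to 0.36). Pkp2 had the lowest log2 ratio of the 10 genes, and each plakophilin kept its sign under the 4 scalings. Both came close to 0, Pkp3 at 0.048 by total counts and Pkp2 at -0.042 by upper quartile factors. There were 1.06 counts of Pkp2 per count of Pkp3 in Control and 0.781 in DSS, a log2 change of -0.44 (interval -0.52 to -0.35).

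Of the 6 desmosome genes, Dsg2, Dsc2 and Dsp had higher log2 ratios than the armadillo genes, but the values did not form separate sets. The step from Dsc2 (0.55) to Pkp3 (0.30) was narrower than that from Jup (0.20) to Pkp2 (-0.13). Dsg2, Dsc2 and Dsp together had 59324 counts in Control and 76804 in DSS, a log2 ratio of 0.76 (interval 0.75 to 0.78). The armadillo genes Jup, Pkp2 and Pkp3 together had 26208 and 22416 counts, a log2 ratio of 0.16 (interval 0.14 to 0.19) by TMM, while their share of all counts was 0.0400% in Control and 0.0375% in DSS. The grouping by role was made with these values in view and is a description.

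**Figure D2:**
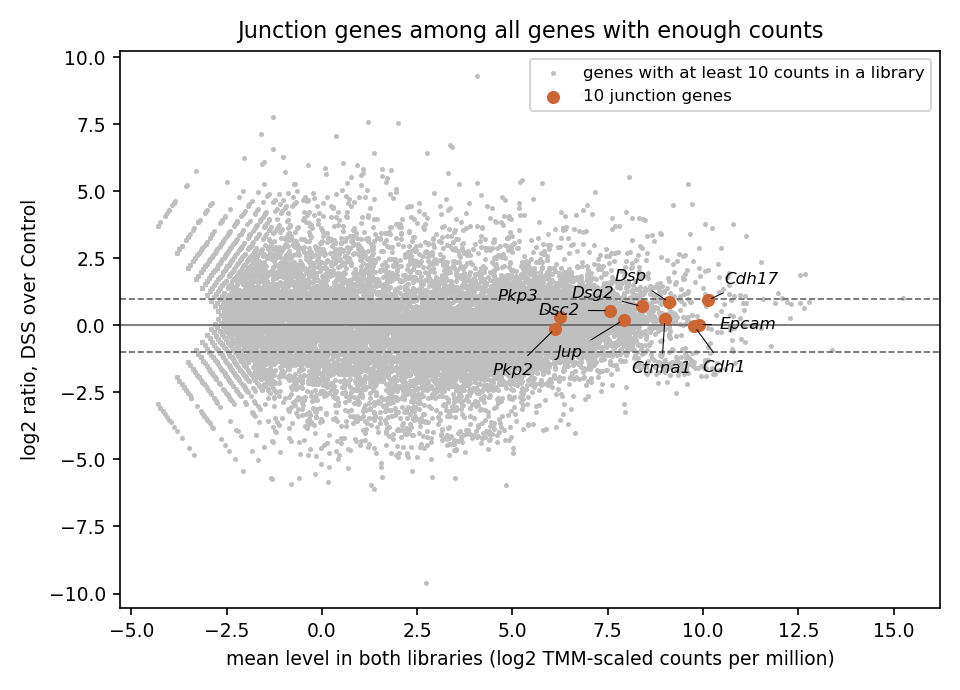
Log2 ratio of DSS over Control against the mean level in both libraries (log2 TMM-scaled CPM) for the 17235 genes with at least 10 counts in a library (grey) and the 10 junction genes (orange), with dashed lines at -1 and 1. The junction genes lie at the abundant end and between the dashed lines, from -0.13 for Pkp2 to 0.93 for Cdh17.

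**Figure D3:**
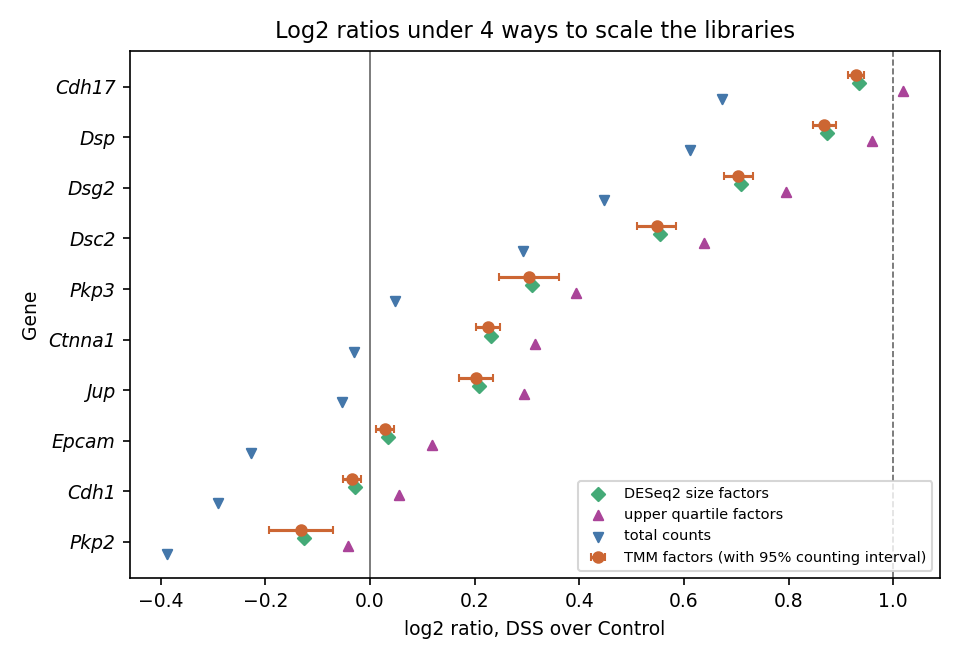
Log2 ratios of the 10 genes, DSS over Control, under 4 ways to scale the libraries, with the 95% counting interval on the TMM value and a dashed line at 1. Cdh17, Dsp, Dsg2, Dsc2 and Pkp3 stayed above 0 under all 4 scalings and Pkp2 below 0, while Ctnna1, Jup, Epcam and Cdh1 crossed 0. Pkp3 came to 0.048 by total counts and Pkp2 to -0.042 by upper quartile factors.

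Per kilobase of the longest principal transcript, Epcam had the highest level of the 10 genes in both libraries, at 461 CPM per kilobase in Control and 471 in DSS. Cdh17 followed at 233 and 443, and Cdh1 at 200.1 and 195. Ctnna1 stood at 127 and 148 and Jup at 70.2 and 80.8. The desmosomal genes Dsg2, Dsp and Dsc2 came next in Control, at 46.0, 42.6 and 33.4. In DSS they stood at 74.9, 77.8 and 48.9, so that Dsp was above Dsg2. The plakophilins were the lowest in both libraries, with Pkp2 at 24.9 and Pkp3 at 24.1 in Control, and Pkp2 at 22.7 and Pkp3 at 29.7 in DSS. Thus 2 neighbouring pairs changed places between the libraries, Dsg2 with Dsp and Pkp2 with Pkp3, and the order was the same when the longest coding transcript was used for length. How far neighbours in this order differ beyond the spread between cultures could not be assessed.

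Promoter sequence from RefSeq (GRCm38.p6) was matched for 3 of the 10 genes, Dsp, Jup and Epcam, and all 3 windows are shown. The log2 ratios of these genes were 0.87, 0.20 and 0.029. Each window ends at the base before the outermost annotated start of the gene and is written 5′ to 3′ on the strand of the gene. Capitals mark matches on either strand to CAGGTG (an E-box that SNAI and ZEB repressors can bind), TTTATG (a core that CDX factors can bind) and GGGCGG (a GC box), none of which overlapped another. The Epcam window is chr17:87635729-87635978 on the plus strand, the Dsp window chr13:38151044-38151293 on the plus strand, and the Jup window chr11:100397840-100398040 on the minus strand.
Epcam: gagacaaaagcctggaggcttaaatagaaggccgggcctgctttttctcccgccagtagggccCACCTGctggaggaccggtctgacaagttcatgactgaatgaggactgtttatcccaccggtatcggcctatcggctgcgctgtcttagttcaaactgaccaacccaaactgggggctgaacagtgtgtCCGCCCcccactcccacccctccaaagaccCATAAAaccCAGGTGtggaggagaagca
Dsp: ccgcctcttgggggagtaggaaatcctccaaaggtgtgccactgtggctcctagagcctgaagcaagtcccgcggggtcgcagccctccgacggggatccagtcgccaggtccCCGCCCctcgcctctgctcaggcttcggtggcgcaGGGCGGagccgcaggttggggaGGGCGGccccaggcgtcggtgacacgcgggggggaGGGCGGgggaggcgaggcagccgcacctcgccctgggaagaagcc
Jup: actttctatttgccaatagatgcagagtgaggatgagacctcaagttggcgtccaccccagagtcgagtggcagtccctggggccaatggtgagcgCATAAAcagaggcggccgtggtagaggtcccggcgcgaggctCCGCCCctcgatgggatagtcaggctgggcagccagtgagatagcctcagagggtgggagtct
The Epcam window held 2 matches to CAGGTG, 1 to TTTATG and 1 to GGGCGG. The Dsp window held 4 matches to GGGCGG and no match to the other motifs, and the Jup window held 1 match to TTTATG and 1 to GGGCGG. Of 32851 windows of 250 bases, 17.2% held CAGGTG, 10.8% TTTATG and 32.7% GGGCGG. For windows of 201 bases, the length used for Jup, the shares were 14.5%, 8.82% and 24.8%. A match describes these letters only and says nothing about binding in these mIOs.

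Of 12 further desmosome genes, 7 were in the table. Their median log2 ratio was 1.37 and their mean 0.98, and 4 of them stood at or above 1 while Pkp1 alone was below -1. Dsg3, a desmoglein of stratified epithelium, had 26 counts in Control and 376 in DSS, a log2 ratio of 4.24 (interval 3.67 to 4.88). Dsg4, a desmoglein of the hair follicle, had 16 and 60 counts, a log2 ratio of 2.30 (interval 1.48 to 3.19). These remained rare transcripts beside Dsg2 and Dsc2. Of the desmosomal cadherin level per kilobase, Dsg3 made up 0.0735% in Control and 0.884% in DSS, while Dsg2 made up 57.8% and 59.8%.

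Pkp1, the plakophilin best known from skin, went the other way. It had 2413 counts in Control and 264 in DSS, a log2 ratio of -2.80 (interval -2.99 to -2.62). Its share of the plakophilin level per kilobase was 9.63% in Control and 1.48% in DSS, while the share of Pkp3 was 32.1% and 42.6% and that of Pkp2 33.1% and 32.5%. Pkp4, which is also found at adherens junctions, had a log2 ratio of -0.20. Among the plakins, envoplakin (Evpl) and periplakin (Ppl), which join keratins to the membrane in differentiated epithelium, had log2 ratios of 1.66 and 1.37. Both were above Dsp in ratio but below it in level, and the share of Dsp in the plakin level per kilobase was 80.2% in Control and 72.5% in DSS. Perp, a tetraspan protein of desmosomes with the highest level per kilobase of this list, had a log2 ratio of 0.28.

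The desmosomal cadherins form 1 gene cluster, in the RefSeq order Dsc3, Dsc2, Dsc1, Dsg1c, Dsg1a, Dsg1b, Dsg4, Dsg3 and Dsg2. Only Dsc2, Dsg4, Dsg3 and Dsg2 were in the table, and all 4 had higher scaled levels in the DSS library. Dsc2 and Dsg2, the abundant ones, had the smallest log2 ratios of the 4.

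The keratins of simple epithelium, the filaments that Dsp anchors, all had log2 ratios above 0 by TMM, with a median of 0.84. Krt20 and Krt19 stood above 1 by TMM, and Krt20 alone by total counts. Krt20, a keratin of differentiated villus cells, had 5041 counts in Control and 61268 in DSS, a log2 ratio of 3.99 (interval 3.95 to 4.03). Krt19 had a log2 ratio of 1.15 and Krt8 one of 0.84, close to the 0.87 of Dsp. Krt8 has an annotated pseudogene whose reads may be shared with it, so its value is uncertain. Krt18 and Krt7 stood at 0.036 and 0.032 by TMM and at -0.22 and -0.22 by total counts.

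Of 21 further adherens junction genes, 18 were in the table, with 12 above 0 by TMM and 7 by total counts. Lmo7 and Zyx stood above 1, and Nectin4 and Ctnnal1 below -1. Their median was 0.21, near the 0.23 of Ctnna1, and it was -0.045 by total counts. Lmo7, a linker between the nectin and actin systems, had 16692 counts in Control and 35451 in DSS, a log2 ratio of 1.48. Zyx, a LIM protein of actin-bound adhesions, had a log2 ratio of 1.38. Nectin4, an immunoglobulin-like adhesion receptor, had 356 and 53 counts, a log2 ratio of -2.36, and Ctnnal1, an alpha-catenin relative, was at -1.21. Ctnnb1 had the highest level per kilobase of the list. Of 8 other cadherins listed, only Cdh2 and Cdh4 were in the table. Cdh2, the N-cadherin of mesenchymal and neural cells, had 5 and 17 counts, and Cdh4 had 5 and 114, so that neither approached Cdh1 or Cdh17 in level.

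Among genes that act with EPCAM, 7 of 8 had enough counts, with a median log2 ratio of 0.044 that was -0.21 by total counts. Cldn7, the claudin that EPCAM stabilises and the highest of the list per kilobase in Control, was at -0.022 by TMM and 0.069 by upper quartile factors, near 0 like Epcam itself. St14, the protease matriptase that can cleave EPCAM, was at 0.37. Spint1, an inhibitor of it, was at 1.10 by TMM and 0.84 by total counts. Spint2, also on the list and with more counts (33908 in Control and 26701 in DSS), was at 0.044 by TMM and -0.21 by total counts. The tetraspanin Cd9 was at -1.05.

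The actomyosin genes of the junctional belt had a median log2 ratio of 0.48, with 11 of 14 above 0, and the median was 0.22 by total counts. Myl9, a myosin regulatory light chain, had 6098 counts in Control and 451 in DSS, a log2 ratio of -3.37. The myosin heavy chain Myh14 was at 1.45 and the kinase Rock2 at 1.32, while Rhoa, the highest per kilobase in Control, was at 0.30. Genes for proteases and adaptors that remove cadherins from the surface had a median of -0.25 by TMM, with 4 of 10 above 0. By total counts their median was -0.50. Mmp7 was at -1.19 and the kinase Src at 0.72, and Adam10, which sheds E-cadherin, was at -0.42.

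The 3 repressors of Cdh1 found in the table had few counts, with a sum of 128 in Control and 94 in DSS. Snai3 had 122 counts in Control and 51 in DSS, a log2 ratio of -0.87. Snai1 had 4 and 32 counts, a log2 ratio of 3.39 (interval 1.89 to 5.35), and Zeb1 had 2 and 11, a log2 ratio of 2.85 (interval 0.65 to 6.06). Both had at least 10 counts in the DSS library alone. The other 4 genes of the list were not in the table, so their counts are not known. Of 17 transcription and splicing factors of intestinal epithelium, 6 were above 0 by TMM and 3 by total counts, and the median was -0.34. Hnf4a, the highest per kilobase, was at 0.049 by TMM and -0.21 by total counts, with Hnf4g at 2.24, Ehf at -2.48 and Ovol2 at -2.31. Cdx2, whose family the TTTATG letters refer to, had 12798 counts in Control and 3840 in DSS, a log2 ratio of -1.35.

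Tight junction genes are the closest group in place and function. By TMM they had a median log2 ratio of 0.65 against 0.26 for the 10 genes, with 12 of 15 above 0, but the means were 0.40 and 0.36. By total counts the medians were 0.39 and 0.0086, and 9 of the 15 tight junction genes were above 0. They spread more widely, from -1.43 for Cldn8 and -1.25 for Cldn2 to 2.18 for Cldn23, whereas the 10 genes stayed within -0.13 and 0.93. Whether the groups differ was not tested.

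**Figure D4:**
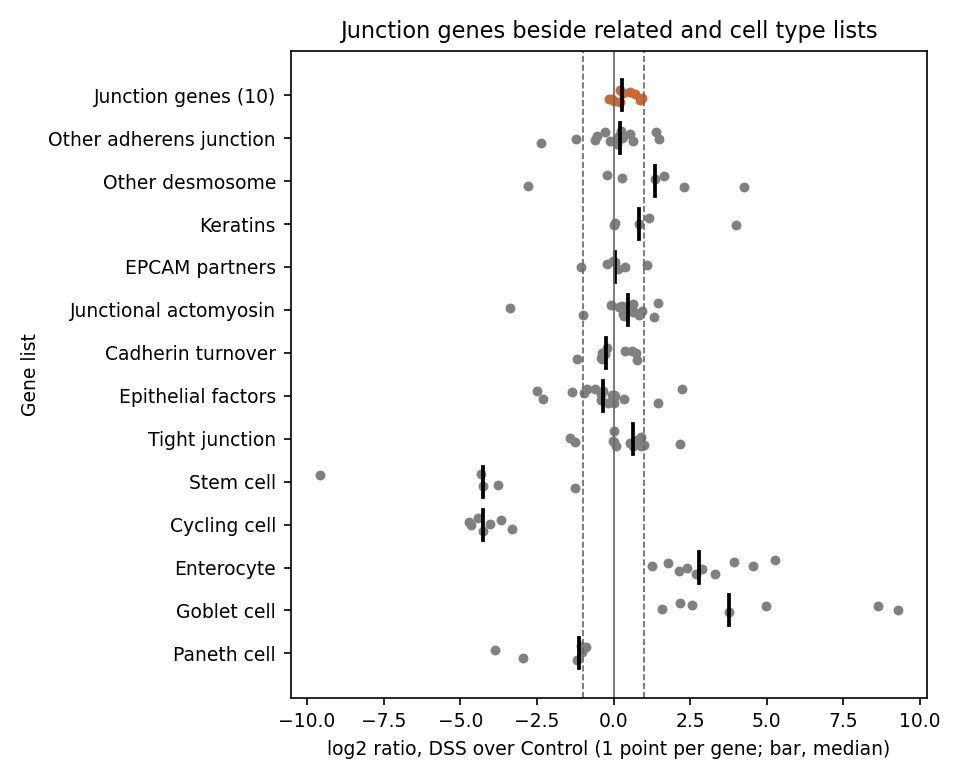
Log2 ratios of DSS over Control for the 10 junction genes (orange) and for related and cell type lists (grey), 1 point per gene with at least 10 counts in a library, a black bar at each median, and dashed lines at -1 and 1. The junction genes lie in a narrow band with a median of 0.26, while the stem cell list has a median of -4.26 and the enterocyte list 2.79.

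By TMM the markers of enterocytes, goblet cells and enteroendocrine cells were higher in the DSS library, and those of Paneth and tuft cells were lower. In bulk samples fewer cells of a type and less RNA per cell cannot be told apart. All 10 enterocyte markers stood above 1 in log2 ratio by TMM (9 by total counts), and their summed level was 2641 CPM in Control and 24355 in DSS, with Sis the most abundant. All 7 goblet cell markers stood above 1, with a summed level of 863 and 11692 CPM and Fcgbp the most abundant. All 6 enteroendocrine markers stood above 1 by TMM as well (5 by total counts), summing to 805 and 4161 CPM with Chgb the most abundant. Stem cell markers summed to 832 CPM in Control and 130.4 in DSS, and cycling cell markers, with Mki67 the most abundant, to 1093 and 72.3. Paneth cell markers summed to 730.3 and 258 CPM, with Defa17 the most abundant in Control, Itln1 in DSS, and all 6 were below 0 under the 4 scalings. Tuft cell markers summed to 9.04 and 4.46 CPM, with Pou2f3 the most abundant in Control and Avil in DSS. The part of these cell types in the ratios of the 10 genes was not tested.

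Markers of cells from outside the epithelium had few counts, and the source of those counts was not tested. Mesenchymal markers summed to 6.66 CPM in Control and 36.1 in DSS, most of it from Vim, and Col1a2, Col3a1, Dcn and Lum were not in the table. Of the endothelial markers only Pecam1 was listed, with 12 and 55 counts. Of the immune markers only Itgam and Cd68 were listed, summing to 12.1 and 22.9 CPM, and Ptprc, Cd3e and Adgre1 were not in the table. None of the 4 markers of stratified squamous epithelium (Krt5, Krt14, Krt13 and Trp63) was in the table, in the same libraries where Dsg3 and Dsg4 were counted. The 10 genes together held 4303 CPM in Control and 5729 in DSS.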

How the data were processed

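RNA from 1 Control and 1 DSS mIO sample was prepared with a stranded mRNA kit. The values deposited by the authors are unnormalised counts for each gene, and the processing notes of the submitters name HISAT2 and StringTie. The genome build, annotation, counting tool and strand setting are not given in the sources used here. Deposited per-sample files named for FPKM held the same counts as the series table for 19294 of 19294 genes. No gene was listed below 1 count, so genes outside the table were treated as not listed and not as 0.

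Counts were scaled with TMM factors of 1.09 (Control) and 0.915 (DSS) from edgeR 4.0.16 in R 4.3.3. Log2 ratios used no prior count, with 95% Clopper-Pearson intervals. Ratios of 2 genes within a library had Wald intervals of the log odds ratio. Both cover counting error only, and reads without molecular identifiers are not independent molecules. Genes with at least 10 counts in a library (17235) formed the background, and those with at least 1000 counts (8960) a second one added after the data were seen. Lengths came from GENCODE vM21 (all 10 genes matched). Alternatives were size factors of DESeq2 1.42.0, upper quartile factors, total counts, thinning of Control to the DSS total, adding a prior count of 2, other count filters, the mean, and a fold line of 2. Python 3.11.15, numpy 2.4.6, scipy 1.17.1, pandas 2.3.3 and matplotlib 3.10.9 were used, and the calculations were tested on simulated data.

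The 10 genes and all lists were chosen with earlier results of these data known. Besides the 10 genes and their partners in ratios, the text names, for each related list, the 3 genes furthest from a log2 ratio of 0 (50 counts or more in a library required), the gene highest per kilobase in Control, and the gene of each cell type list most abundant in Control. Other genes named, such as Ctnnal1, Ctnnd1, Pkp4, Evpl, Ppl, Krt18, Krt7, Snai1, Zeb1, Cdh2, Cdx2, Itln1, Avil and Olfm4, were named after their values were seen. Some genes that the rule would name are not reported here.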

Additional observations from a re-analysis of the deposited data

How the results depend on the processing

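No replicate could be left out, and no paired analysis was possible because each condition has 1 library. DESeq2 size factors, a prior count of 2 and thinning of the deeper library changed no direction among the 10 genes and no count of them past a fold line. The ratios of gene pairs were recomputed with thinning alone, and none changed direction. By upper quartile factors the median log2 ratio of the 10 genes was 0.36, 1 gene (Cdh17) was at 1 or more, and Cdh1 was at 0.056. By total counts the median was 0.0086, 5 genes were above 0, and Ctnna1, Jup and Epcam were at -0.031, -0.053 and -0.23. Total counts also turned the medians of the further adherens junction genes (-0.045) and of the EPCAM partners (-0.21). These moves follow from the construction, since a scaling shifts all genes by the same amount. The mean of the 10 genes was 0.36. In place of the median, the mean was 0.40 for tight junction genes, 0.22 for actomyosin genes, 0.040 for the further adherens junction genes and -0.041 for the cadherin turnover genes, against medians of 0.65, 0.48, 0.21 and -0.25. For the further desmosome genes and the keratins the means were 0.98 and 1.21, against medians of 1.37 and 0.84. With at least 10 counts in both libraries, Snai3 alone was left of the repressors, and their median turned from 2.85, which rested on genes counted at 10 or more in DSS alone, to -0.87. With 1 library per condition, depth limits only rare genes such as Zeb1 and Dsg4, and the spread between cultures is unknown.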

Other observations

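Besides the 10 genes, 54 genes of the cadherin superfamily had at least 10 counts in a library, chosen by symbol after the data were seen and with Dsg3, Dsg4, Cdh2 and Cdh4 among them. The abundant ones included Cdhr2 and Cdhr5, protocadherins that link the tips of brush border microvilli. Cdhr2 had 21490 counts in Control and 65720 in DSS, a log2 ratio between 1.98 and 2.02 by its counting interval, and Cdhr5 had 10844 and 37205, a log2 ratio of 2.17 (interval 2.14 to 2.20). Both were higher in ratio than Cdh17. All 10 enterocyte markers also stood above 1 by TMM, and their part in these values was not tested. Fat1, a giant atypical cadherin, had 15670 and 24384 counts, a log2 ratio of 1.03 by TMM and 0.77 by total counts. Others with many counts were nearer 0, with Clstn1 (13691 and 11489 counts) at 0.14 by TMM and -0.12 by total counts, and Pcdh1 (7523 and 7595 counts) at 0.40. Celsr2, a cadherin of planar cell polarity, went the other way with 1452 and 299 counts, a log2 ratio of -1.89. The clustered gamma protocadherins share constant exons, so their counts are uncertain, and Pcdhgc3, with 2286 and 1086 counts, was at -0.69.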
